A study of Mus musculus with 12 samples.

Results

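Sarcolipin (Sln), the sarcoplasmic reticulum calcium pumps Atp2a1 and Atp2a2, the calcium store proteins Casq1 and Casq2, and the reticulum proteins Trdn, Srl and Hrc were followed in the tongue of mouse embryos at E13.5. These 8 genes were chosen by name from the 18193 genes with a probe set of their own on the array, and all 8 were measured. The choice was made with earlier results of these data known, so their share of falls is not that of an unselected set. Mutant tongues carried Myf5-Cre with both copies of Smad4 floxed (Myf5-Cre;Smad4flox/flox), and control tongues carried the same Cre with 1 floxed and 1 wild-type copy (Myf5-Cre;Smad4flox/+), all on the C57BL/6J background, with 6 arrays that the labels call biological replicates in each genotype. Controls therefore also carry the Cre and lose 1 copy of Smad4 wherever it acts. Cre is made where Myf5, a gene of muscle precursors, is active, so cells that never made Cre should keep Smad4. Which cells of the tongue lost it was not measured here. The sources used here do not say whether tongues were pooled or from which litters they came. Values are log2 signals of an Affymetrix mouse expression array, on which a step of 1 is a doubling. A gene was said to fall or rise where the adjusted p of limma (Benjamini-Hochberg over all genes) was under 0.05.

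The sarcoplasmic reticulum is the calcium store of the muscle fibre. Pumps of the SERCA family, encoded by Atp2a1 (fast muscle) and Atp2a2 (heart and slow muscle in one splice form, most other cells in another), load it from the cytosol, and small membrane peptides such as sarcolipin restrain them. Calsequestrins bind the stored calcium, triadin holds them to the ryanodine receptor through which calcium leaves, and sarcalumenin (Srl) and the histidine-rich calcium-binding protein (Hrc) are further proteins of the reticulum and its lumen.

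Array medians lay between 6.1 and 6.18, and correlations between arrays between 0.991 and 0.997. Smad4 itself differed by −0.15 (adjusted p = 0.427), with 12.14 ± 0.27 in mutants and 12.29 ± 0.07 in controls. Mutant 1 read 11.58 and the other mutants 12.18 to 12.30, and without it the difference was −0.04. The sources used here do not say whether its probe sets lie in the deleted part. Myf5, whose regulatory region drives the Cre, fell by 1.81. The 3′ minus the 5′ signal of Gapdh, a sign of RNA quality, was 0.006 to 0.097 in mutants and −0.013 to 0.082 in controls (exact permutation p = 0.277). For β-actin it was 0.378 to 0.498 in mutants, highest in mutants 1 and 2, and 0.358 to 0.474 in controls (exact permutation p = 0.113). By the root mean square difference over all genes, mutants 1 and 2 lay farthest from the controls, at 0.300 and 0.279, against 0.182 to 0.245 for the other mutants. Sex-linked transcripts were mixed in 3 arrays. Control 3 had Xist at 12.40, the level of the female arrays, with Eif2s3y, a gene of the Y chromosome, at 6.03, where female arrays read 3.14 to 4.01. Mutants 4 and 6 had Eif2s3y at 9.03 and 8.88, with Xist at 8.73 and 7.88, where male arrays read 6.18 to 6.65. The falls of the 7 genes below also passed without mutants 1 and 2 and without these 3 arrays. Sln differed by −1.54 and −1.55 in those fits.

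Of the 8 genes, 7 fell in the mutant tongue and none rose by the brightest probe set of each, against 4.80% of all genes that fell and 6.30% that rose. Folds of the 7 ran from 1.71 for Hrc to 3.10 for Sln. The median difference of the 8 genes was −0.97 on the log2 scale, beside 0.01 over all genes. For 6 of them every mutant lay below every control, as it did for 2.90% of all genes, and for none did every mutant lie above every control, as for 3.40% of all genes. Atp2a2 did not pass by its brightest probe set, but its other bright probe sets fell, as described below. Whole tongue was measured, so fewer muscle cells and less RNA per muscle cell cannot be told apart. Fibre markers fell in the same arrays, and their values are given with the results below.

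**Figure D1:**
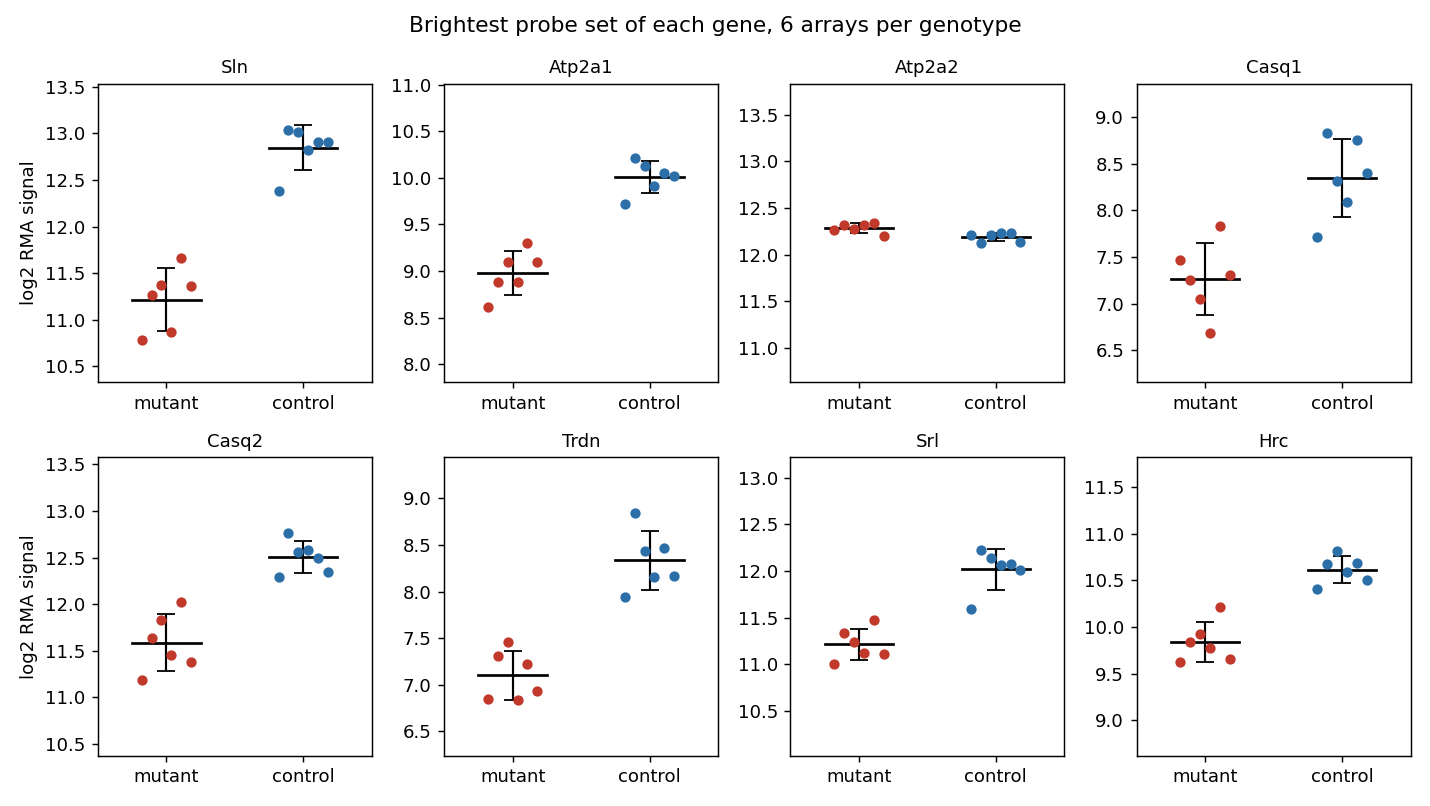
Log2 RMA signal of the brightest probe set of each gene (vertical axis, with the same span in every panel) in 6 mutant and 6 control arrays. Points are arrays, bars are means with SD. Mutants lie below controls for 7 genes, with overlap for Casq1 only, and Atp2a2 differs by 0.10.

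The sequences just before the transcription start of members that fell together are shown for the 4 with an entry in the RefSeq promoter table (build GRCm38.p6). These were Atp2a1 at chr7:126463074-126463323 on the minus strand, Casq1 at chr1:172219896-172220145 on the minus strand, Casq2 at chr3:102086165-102086414 on the plus strand and Hrc at chr7:45335019-45335268 on the plus strand. Sln, Atp2a2, Trdn and Srl had none. Each run is 250 bases, 5′ to 3′ along the gene. Capitals mark matches on either strand to the E-box CANNTG, the motif of myogenic bHLH factors, and to CTANNNNTA, the core of the MEF2 motif.
Atp2a1: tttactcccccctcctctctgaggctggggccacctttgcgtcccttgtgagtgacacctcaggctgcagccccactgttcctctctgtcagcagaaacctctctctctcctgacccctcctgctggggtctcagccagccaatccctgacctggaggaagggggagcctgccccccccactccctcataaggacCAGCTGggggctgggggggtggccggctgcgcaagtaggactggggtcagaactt
Casq1: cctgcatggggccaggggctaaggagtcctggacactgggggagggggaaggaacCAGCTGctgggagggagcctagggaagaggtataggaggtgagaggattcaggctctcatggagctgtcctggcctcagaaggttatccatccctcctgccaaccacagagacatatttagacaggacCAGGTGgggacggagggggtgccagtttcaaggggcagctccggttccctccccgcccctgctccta
Casq2: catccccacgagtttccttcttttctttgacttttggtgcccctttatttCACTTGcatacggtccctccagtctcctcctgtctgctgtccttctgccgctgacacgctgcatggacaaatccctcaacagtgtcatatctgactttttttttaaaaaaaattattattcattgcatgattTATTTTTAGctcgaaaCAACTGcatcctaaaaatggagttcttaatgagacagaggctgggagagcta
Hrc: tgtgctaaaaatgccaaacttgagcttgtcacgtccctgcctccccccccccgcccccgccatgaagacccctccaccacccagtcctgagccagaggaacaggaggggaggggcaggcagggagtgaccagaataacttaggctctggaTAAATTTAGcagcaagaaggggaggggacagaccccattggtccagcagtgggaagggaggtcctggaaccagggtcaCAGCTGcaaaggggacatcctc
All 4 held an E-box, at 1 place in Atp2a1 and Hrc and 2 places in Casq1 and Casq2, and no E-box overlapped a MEF2 core. An E-box was present in 66.2% of 32536 promoter stretches of this length and the MEF2 core, held by Casq2 and Hrc, in 18.9%. The short SMAD-binding element CAGAC, on either strand and left in lower case, was found in Casq2 and Hrc and in 42.2% of all stretches. These matches describe the letters only.

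Sln, which encodes the peptide that lowers the efficiency of the SERCA pumps, fell most. Its signal in mutants was 10.78 at the lowest, 11.31 at the median and 11.66 at the highest, against 12.38, 12.91 and 13.04 in controls. The groups did not overlap, and the lowest control stood clear of the other controls. The difference was −1.63 ± 0.15 (SE, n = 6 each, adjusted p = 0.00017), 3.10-fold lower, and the 4th largest fall of all genes. A second Sln probe set, dim at 4.57 ± 0.14 in mutants and 5.37 ± 0.29 in controls (SD, n = 6 each), fell by 0.79 (adjusted p = 0.00146 over all probe sets). Dim means under 6.13, the median of all probe sets, where RMA compresses differences. With the mean of both probe sets Sln differed by −1.21.

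Of 2 other peptides of this kind, Mrln fell and Pln did not pass, and the difference between them was not tested. Mrln, which encodes myoregulin, the pump inhibitor of skeletal muscle, averaged 9.14 ± 0.46 in mutants and 10.36 ± 0.14 in controls (SD, n = 6 each). It fell by 1.23 (adjusted p = 0.000712), with every mutant below every control. Phospholamban (Pln), the pump inhibitor of heart, stayed between 3.29 and 4.59 in mutants and between 3.35 and 4.78 in controls over its 3 probe sets, all dim, and its brightest differed by −0.18 (adjusted p = 0.255).

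Among the pumps, Atp2a1 was lower in every mutant. Mutants read 8.61 at the lowest, 8.99 at the median and 9.30 at the highest, and controls 9.72, 10.04 and 10.21. The groups did not touch. The fall of 1.03 ± 0.11 (SE, adjusted p = 0.000243) is 2.04-fold. Atp2a3, the pump of blood and endothelial cells, differed by −0.18 (adjusted p = 0.28).

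Probe sets of Atp2a2 split into a group that fell and a group that did not. The brightest (1427250_at) read 12.20, 12.30 and 12.34 (lowest, median and highest) in mutants and 12.13, 12.21 and 12.23 in controls. Its groups touched, with 5 of 6 mutants above every control, and the difference of 0.10 did not pass (adjusted p = 0.152, interval 0.01 to 0.18). The next (1416551_at) averaged 11.65 ± 0.18 in mutants and 12.25 ± 0.09 in controls (SD, n = 6 each). It fell by 0.61 ± 0.08 (SE, adjusted p = 0.000769, taken over every probe set), with 6 of 6 mutants below every control. A probe set of middle brightness (1452363_a_at) fell by 0.69 (adjusted p = 0.0017, taken over every probe set), and of its mutants only mutant 5, at 11.15, overlapped the controls, at 11.14 for control 1. The remaining 3 differed by 0.04, 0.19 and 0.05 and did not pass, and 2 of them were dim.

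Within each array, the second probe set minus the brightest was lower by 0.70 in mutants, and 1452363_a_at minus the brightest by 0.79 (exact permutation p = 0.00216 for each, the smallest possible, adjusted p = 0.00541 over 5 such differences). Both held in 6 of 6 mutants. The other 3 such differences lay between −0.05 and 0.09, with adjusted p = 0.635 or above. This test was chosen after the values were seen. By the mean over the controls alone 1416551_at (12.25) ranked above 1427250_at (12.19), so that ranking over all 12 arrays chose the one that did not fall. The sources used here do not say which splice form of Atp2a2 each probe set reads.

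**Figure D2:**
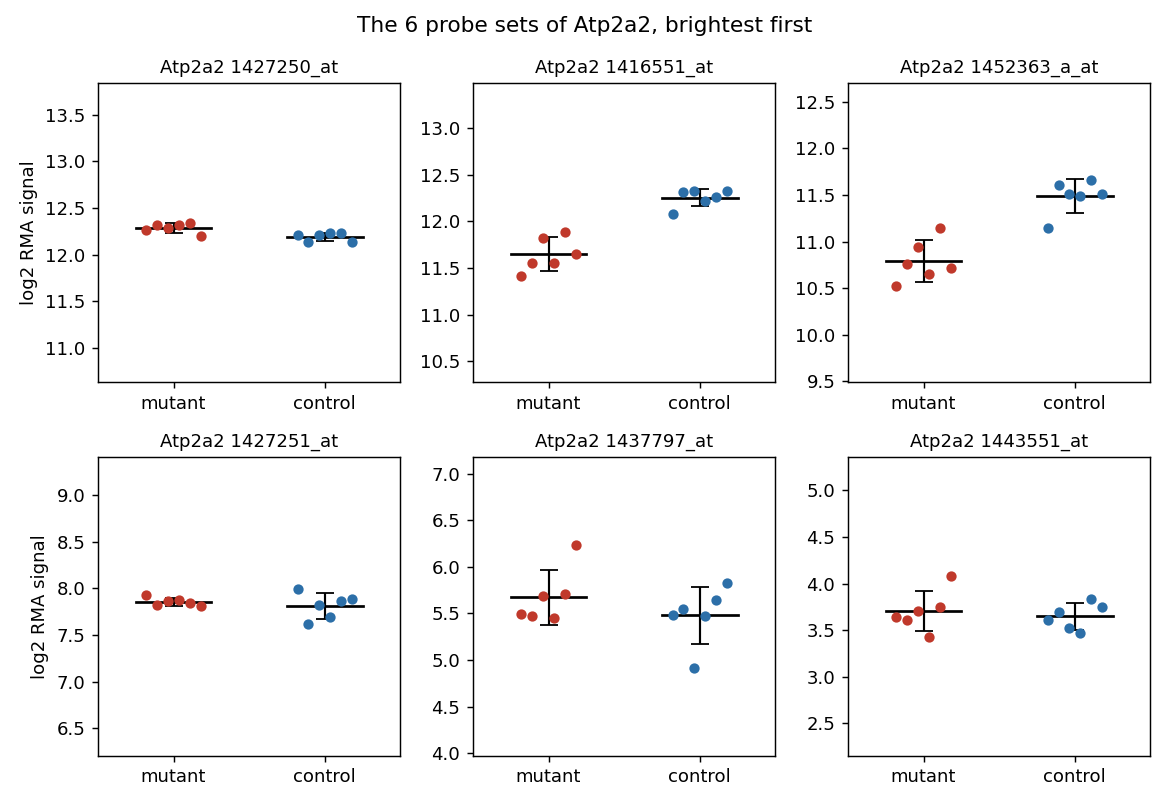
Log2 RMA signal of the 6 Atp2a2 probe sets, brightest first, in 6 mutant and 6 control arrays (points; bars are means with SD; all panels have the same span). Mutants are lower in the panels of 1416551_at and 1452363_a_at, by 0.61 and 0.69, and the other panels show differences of 0.04 to 0.19.

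Both calsequestrins fell. Casq2, the calsequestrin of heart and of slow and embryonic muscle, read 11.19, 11.55 and 12.02 (lowest, median and highest) in mutants and 12.29, 12.53 and 12.76 in controls, with no overlap. It fell by 0.92 ± 0.13 (SE, adjusted p = 0.000685), 1.89-fold. Its probe set has the suffix that Affymetrix gives to probes shared by more than one transcript. Casq1, the fast-muscle form, read 6.69, 7.28 and 7.83 in mutants and 7.71, 8.36 and 8.83 in controls. Mutant 5, at 7.83, lay above control 1, at 7.71, so Casq1 was the one falling gene whose groups overlapped. It fell by 1.08 ± 0.20 (SE, adjusted p = 0.00381), with the widest spread of the 8 genes (SD 0.38 in mutants and 0.42 in controls).

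Trdn, the anchor between calsequestrin and the release channel, fell by all 6 of its probe sets. The brightest read 6.84, 7.07 and 7.46 (lowest, median and highest) in mutants and 7.94, 8.30 and 8.84 in controls. Every mutant was below every control for each of the 6 probe sets. The brightest fell by 1.24 ± 0.15 (SE, adjusted p = 0.000338), 2.35-fold, and the others by 0.87 to 1.30, the smallest falls being those of its 2 dim probe sets. The brightest also carries a suffix for probes that may match other transcripts.

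Srl and Hrc fell by the smallest amounts of the 7. Srl, whose product sarcalumenin lies in the lumen beside the pumps, averaged 11.21 ± 0.17 in mutants and 12.02 ± 0.22 in controls (SD, n = 6 each), a fall of 0.80 (adjusted p = 0.00047). Hrc averaged 9.84 ± 0.21 in mutants and 10.62 ± 0.14 in controls, a fall of 0.78 (adjusted p = 0.00039). Neither had overlap between the groups.

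Counted by probe set, 15 of the 19 probe sets of the 8 genes fell and none rose, against 3.61% falling and 3.87% rising of all 34945 probe sets with 1 symbol. Every mutant was below every control for 13 of the 19, as for 2.35% of all probe sets. Atp2a2 was the one gene whose probe sets disagreed.

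Pairs of members were set against each other within arrays, which asks whether they changed unequally. Sln fell more than Atp2a1, which encodes a pump it acts on. The difference between them was lower in mutants by 0.61, in 6 of 6 mutants (exact permutation p = 0.00216, the smallest possible, adjusted p = 0.00433 over 4 pairs). With the mean of both Sln probe sets, 1 of them dim, it was lower by 0.19 (exact permutation p = 0.0238). Atp2a1 minus Atp2a2 was lower by 1.12 in mutants by the brightest probe sets, again in 6 of 6 (adjusted p = 0.00433). With the second probe set of Atp2a2, an alternative added after its values were seen, it was lower by 0.42 (exact permutation p = 0.00216). No unequal change of the calsequestrins was measurable. Casq1 minus Casq2 differed by −0.16 (exact permutation p = 0.459, adjusted p = 0.459), with a spread between arrays of 0.42 in mutants and 0.34 in controls. Trdn minus Casq1 differed by −0.15 (exact permutation p = 0.426, adjusted p = 0.459).

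The 24 markers of skeletal muscle fibres (sarcomere and other fibre genes, none of them among the 8) gave the scale of the muscle change in these arrays. In mutants 22 of these markers fell and none rose, where 4.80% of all genes fell and 6.30% rose. Their median difference was −0.67, and their mean signal was 11.54 ± 0.16 in mutants and 12.26 ± 0.19 in controls (SD, n = 6 each). Its arrays ran from 11.34 to 11.73 in mutants and from 11.91 to 12.47 in controls. The difference of −0.72 held in 6 of 6 mutants (exact permutation p = 0.00216, adjusted p = 0.00325 over 6 marker lists). After this mean was subtracted array by array, limma was run again over all genes. In that fit 0.390% of genes were lower and 97.7% higher, since most genes did not share the fall of the markers. The standard errors of the 8 genes in it were nearly equal (0.125 to 0.140). Every gene carries the spread of the subtracted mean, and limma draws the variances of genes together. Its intervals and p therefore say little of each gene's own spread, and exact permutation tests over arrays are given beside them.

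Sln fell more than the mean of the fibre markers, by a further 0.91 ± 0.13 (SE, adjusted p = 1e-08). After the subtraction 6 of 6 mutants lay below every control. With the mean of all probe sets, for Sln and for the markers alike, the further fall was 0.55 (adjusted p = 7.66e-06). Single markers ranged from −1.51 for Tnnt3 and −1.39 for Myh8 to −0.16 for Actc1, so some of them also fell beyond their mean. The change of Trdn relative to the markers was −0.52 ± 0.13 (SE, adjusted p = 0.000168), with 5 of 6 mutants below every control, and −0.29 with arrays weighted by their variance (adjusted p = 0.00881). The changes of Srl and Hrc differed from that of the markers by −0.09 and −0.06 (adjusted p = 0.495 and 0.653), with intervals of −0.34 to 0.16 and −0.31 to 0.20. Casq2 differed by −0.20 (adjusted p = 0.123, interval −0.46 to 0.06). The exact permutation p of these differences was 0.00216 for Sln, 0.00433 for Trdn, 0.0671 for Casq2, 0.0866 for Srl and 0.522 for Hrc. The change of Atp2a2 relative to the markers was 0.81 by its brightest probe set and 0.11 by its second (exact permutation p = 0.19). With the mean of all probe sets, for Atp2a2 and for the markers alike, it was 0.51.

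Atp2a1 and Casq1 passed in this fit but lost the call under some alternatives. The change of Atp2a1 relative to the markers was −0.31 (adjusted p = 0.0191), with 6 of 6 mutants below every control and an exact permutation p = 0.00216. It differed by −0.25 without mutant 2 (adjusted p = 0.0659), by −0.28 without control 3 (0.0562), by −0.20 without mutants 1 and 2 (0.17), by −0.33 without control 3 and mutants 4 and 6 (0.0583), and by −0.17 against the 12 markers with a mean signal under 12 (exact permutation p = 0.154). That of Casq1 was −0.36 (adjusted p = 0.0113), with 4 of 6 mutants below every control and an exact permutation p = 0.0866. It differed by −0.28 without mutant 4 (adjusted p = 0.0562), by −0.28 without control 3 and mutants 4 and 6 (0.112), and by −0.23 against the dimmer markers (exact permutation p = 0.182). Against those dimmer markers the changes of Sln and Trdn were −0.78 and −0.38 (exact permutation p = 0.00216 and 0.00866).

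**Figure D3:**
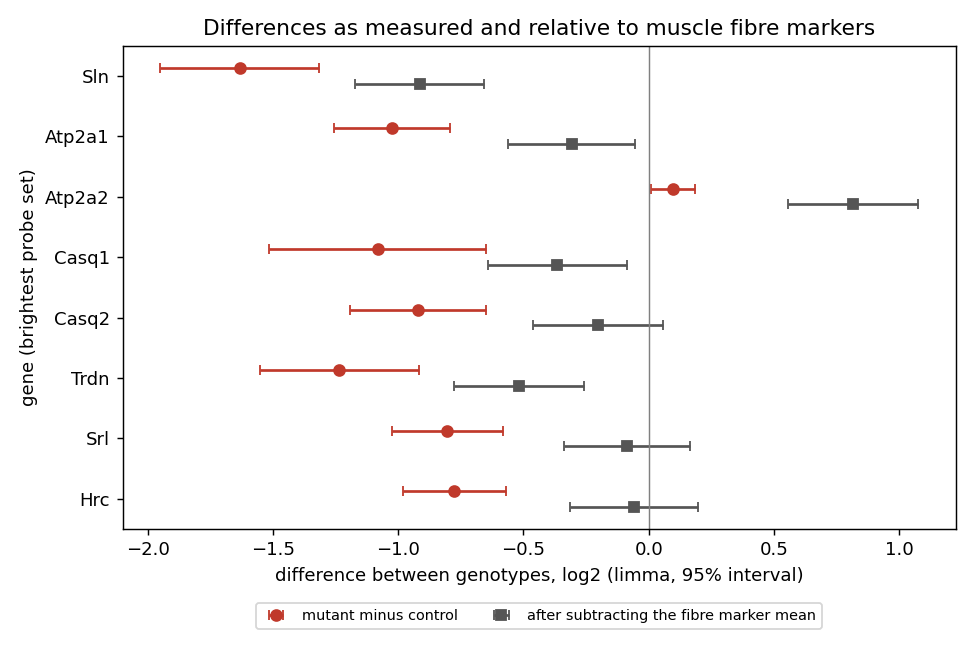
Difference between genotypes on the log2 scale (horizontal axis, with 95% intervals from limma, n = 6 each) for the brightest probe set of each gene. Circles give mutant minus control, and squares the same after subtracting the fibre marker mean of each array. Squares of Srl, Hrc and Casq2 have intervals that span 0, while those of Sln and Trdn lie below it, at −0.91 and −0.52.

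A few arrays held most of the extreme values of the 7 falling genes. Mutant 1 held the lowest mutant value for 5 of the 7 genes and mutant 4 for the other 2, while mutant 5 held the highest for 6. Among controls, control 1 was lowest for all 7 and control 2 highest for 6. The fibre marker mean was likewise lowest in mutants 1 and 4, at −0.92 and −0.87 from the control mean, and in control 1 among controls, at −0.35. Control 1 made the falls smaller. Without it Sln differed by −1.73 and Casq1 by −1.21.

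**Figure D4:**
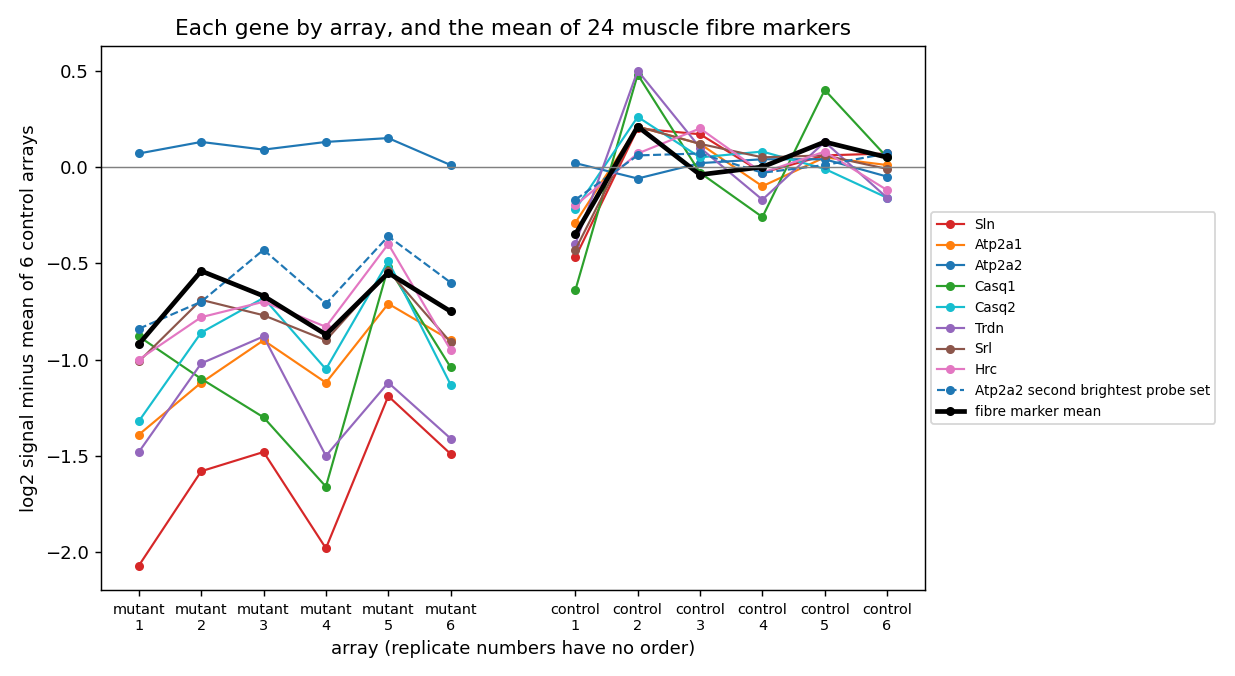
Log2 signal of each gene minus its mean over the 6 control arrays (vertical axis), by array, with the mean of the 24 fibre markers in black and the second Atp2a2 probe set dashed. Lines join the arrays of one genotype for reading only. Sln lies lowest in every mutant, from −2.07 to −1.19, and the brightest Atp2a2 probe set stays between 0.01 and 0.15.

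Markers of other cells that use these genes were examined beside them, where 4.80% of all genes fell and 6.30% rose. Heart also expresses Sln, Atp2a2, Casq2, Trdn, Srl and Hrc. Of 13 heart markers 8 were dim. The defining atrial genes Nppa and Myl7 read 3.77 and 5.32 in mutants and 3.83 and 5.36 in controls. The mean of the heart list was 5.82 to 6.19 in mutants and 6.24 to 6.37 in controls, lower by 0.27 (exact permutation p = 0.00216, adjusted p = 0.00325). Of its 13 members 2 fell and 1 rose. Those that fell were Smpx (by 1.15) and Nkx2-5 (by 1.03), named after their values were seen. Smpx was the brightest of the list, at 11.71 in controls, and whether it was read from heart or skeletal muscle was not tested. The ventricular Myl2 and Myh6, a myosin of heart muscle, differed by −0.65 and −0.66 and did not pass (adjusted p = 0.194 and 0.165). Of 12 smooth muscle and pericyte markers 6 fell and 1 rose, and the mean was lower by 0.21 (exact permutation p = 0.00866, adjusted p = 0.0104), with 3 of 6 mutants below every control. Its defining gene Myh11 was dim, at 5.40 in mutants and 5.37 in controls. The 6 that fell, named after their values were seen, were Synpo2 (by 0.93), Tagln (0.92), Acta2 (0.45), Actg2 (0.40), Lmod1 (0.38) and Smtn (0.34). Mylk rose by 0.37. Whether these genes were read from smooth or skeletal muscle was not tested. The neuron mean was 8.49 to 9.19 in mutants and 7.96 to 8.23 in controls, with 10 of 11 markers higher. The mesenchyme mean was 9.79 to 10.09 in mutants and 9.55 to 9.67 in controls, with 8 of 12 higher, and the epithelium mean 10.49 to 10.84 in mutants and 10.15 to 10.54 in controls, with 4 of 12 higher. The part of these other cells in the results was not tested.

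Genes that couple the surface membrane to calcium release fell with the stores. Among the 19 on the list 13 fell, 1 rose and 5 did not pass, where 4.80% of all genes fell and 6.30% rose. The median difference of the 19 was −0.54, beside 0.01 over all genes. Cacna1s, the voltage sensor of the T-tubule, fell by 0.99 (adjusted p = 0.00017), with 7.48 ± 0.20 in mutants and 8.47 ± 0.16 in controls (SD, n = 6 each). Ryr1, the release channel itself, fell by 0.92 (adjusted p = 0.00125). Jph2, which ties the reticulum to the T-tubule, fell by 0.75 (by 0.45 with the mean of its probe sets), Rtn2, a reticulon, by 0.88, and Tmem38a, a cation channel of the reticulum, by 0.54. In these 5 genes every mutant lay below every control. That held for 7 of the 19 on the list and for 2.90% of all genes. The member that rose was Asph (0.22, adjusted p = 0.0115), whose locus makes both junctin, a partner of triadin, and an enzyme of many cells. Its direction depends on the probe sets, since the mean of its 6 differed by −0.15 (adjusted p = 0.179).

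Of 28 other pump, exchanger, channel and endoplasmic reticulum genes, 2 fell, 6 rose and 20 did not pass, where 4.80% of all genes fell and 6.30% rose. The median difference of the 28 was 0.04, beside 0.01 over all genes. Besides Mrln, the member that fell was Atp2b1, a pump of the surface membrane (−0.28, adjusted p = 0.00942). The 6 rises ran from 0.21 to 0.61. Ryr2, the ryanodine receptor of heart and neurons, rose by 0.61 (adjusted p = 0.0075), with dim signals of 5.23 in mutants and 4.62 in controls, and by 0.31 with the mean of its probe sets. Slc8a2, a sodium-calcium exchanger of neurons, rose by 0.29, Itpr3, an IP3 receptor, by 0.23, and Pdia4, a chaperone of the endoplasmic reticulum, by 0.22. Slc8a1, which was not dim, rose by 0.41 (adjusted p = 0.0332), with overlap between the groups. Its call was not followed under the alternatives. The mean of neuron markers was higher by 0.75 in the same arrays, and its part was not tested. The calls of Asph, Atp2b1, Itpr3, Pdia4 and Slc8a2 ended without mutants 1 and 2 (adjusted p = 0.0506 to 0.0778), and those of Pdia4 and Slc8a2 with the mean of their probe sets (adjusted p = 0.142 and 0.134). Without control 3 and mutants 4 and 6, Asph, Atp2b1, Itpr3 and Ryr2 did not pass (adjusted p = 0.0612 to 0.0937).

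**Figure D5:**
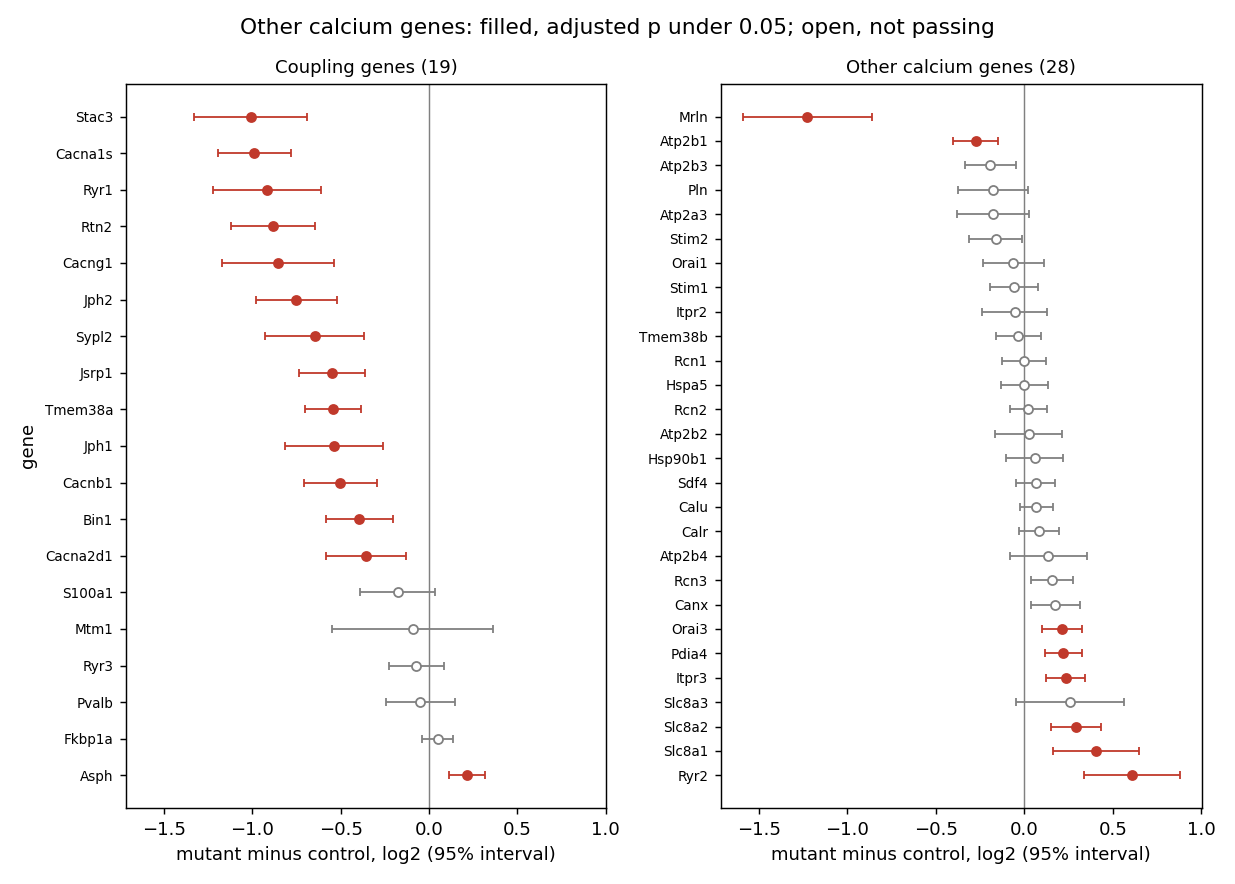
Mutant minus control difference on the log2 scale (horizontal axis, 95% intervals from limma, n = 6 each) for 19 coupling genes and 28 other calcium genes, sorted by size. Filled points passed an adjusted p of 0.05. Coupling genes lie mostly below 0, down to −1.01. The other calcium genes lie mostly near 0, with Mrln at −1.23 and Ryr2 at 0.61 farthest from it.

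The genes of the whole array with the profile nearest to each of 4 members were found from the root mean square difference over 12 arrays, each gene minus its own mean. Nearest to Sln were Col22a1 (0.154), Art1 (0.155) and Mustn1 (0.161), where the median over all genes was 0.872. Mypn (0.0792), Klhl40 (0.0974) and Unc45b (0.103) lay nearest to Atp2a1. Those nearest to Casq2 were Fhod3 (0.0764), Tnnt2 (0.0802) and Nexn (0.0829). Usb1 (0.0257), Gnb1l (0.0331) and Irf1 (0.0355) came nearest to the brightest Atp2a2 probe set, a flat profile. This measure follows the size of a change as well as its shape.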

How the data were processed

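Total RNA of whole E13.5 tongues was hybridised to 12 Affymetrix arrays, 6 mutant and 6 control. The authors deposited RMA values, here read as log2 signals per probe set; the submitters' processing notes name RMA alone, and base 2 was taken from the range (2.57 to 15.09). RMA equalises the arrays' distributions, which hides any change common to most genes. Precision is set by how many arrays there are.

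The 64 control probe sets among 45101 were dropped. The GEO platform annotation gave 1 symbol to 34945, several to 932 and none to 9160. Symbols of 34741 were checked against RefSeq names of GRCm38.p6, and none changed. Each gene took the probe set with the highest mean over 12 arrays. A free-text field of the labels that describes other embryos was not used. The labels give no batch.

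Differences between genotypes were fitted in limma 3.58.1 under R 4.3.3 (lmFit and eBayes, 2-sided, no covariate), a step tested on simulated data. Single values were compared by exact 2-sided permutation tests over arrays (smallest p 0.00216). The members, gene lists, pairs and alternatives were chosen with earlier results of these data known. Named genes were the 8 members, up to 4 passing genes by smallest p in each direction of 2 calcium lists, Pln, Mrln, Atp2a3, Ryr1, Smad4, Myf5, and the 3 nearest genes of 4 members. The brightest-probe-set alternatives for Atp2a2, the exact tests against fibre markers and the reference of dimmer markers were added after the data were seen. Itpr1, listed, had no probe set of 1 symbol.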

Additional observations from a re-analysis of the deposited data

Results flagged for a closer look

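Among 106 groups of 6 arrays, 9 held an array far from the other 5, where chance flags about 1 group in 20. The groups share the same 12 arrays and are not independent, so an excess over chance was not tested. Control 1 was the lowest control for 5 of them. It read 12.38 for Sln, against 12.82 for the next control, 11.59 for Srl (12.01), 11.14 for the Atp2a2 probe set 1452363_a_at (11.49) and 7.68 for Tmem38a (7.96), and its Sln minus Atp2a1 difference was 2.66 (2.83). Control 2 was highest for the dimmest Trdn probe set, at 6.27 against 5.57. Mutant 6 was highest for a dim Atp2a2 probe set, at 6.23 against 5.71, and lowest for Pdia4, at 10.97 against 11.10. Mutant 1 was lowest for Smad4, at 11.58 against 12.18.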

How the results depend on the processing

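The 7 falls (Sln, Atp2a1, Casq1, Casq2, Trdn, Srl and Hrc) kept their direction and call under every alternative run on the brightest or mean probe sets, with the highest adjusted p at 0.0438 (Casq1 without control 3 and mutants 4 and 6). Atp2a2 reversed with its probe sets 1416551_at and 1452363_a_at (−0.61 and −0.69), and Asph with the mean of its probe sets (−0.15); that mean takes in probe sets that disagree. Over all genes 873 were lower and 1147 higher; 496 and 379 without mutants 1 and 2, and 396 and 440 without control 3 and mutants 4 and 6, with fewer samples. Leaving out single arrays gave 665 to 899 lower and 733 to 1209 higher (733 and 763 without mutant 1 or 2). Relative to the fibre markers, 71 genes and 4 members were lower; 44 genes without mutants 1 and 2, 2 members without control 3 and mutants 4 and 6, and 193 genes and 7 members against the mean of the coupling genes, whose median fall was smaller (−0.54, fibre markers −0.67). With dim probe sets left out 11809 genes, of fewer tested, were higher, against 17774. Casq2 passed relative to the markers under the replicate block (adjusted p = 0.0418) and with mean probe sets (0.0273). Casq2 has 1 probe set, so the mean over probe sets changed the markers and left its own values as they were.

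The replicate number as a block left the 7 calls (1047 genes higher, 885 lower). The labels give the numbers no meaning, and the arrays were not taken as paired because 1 of the 6 same-number correlations of deviations was below 0.1 (range −0.08 to 0.284). That 4 of 6 mutants correlated best with their own number is a hint of pairing from the data, not from the design. Under the block the smooth muscle and epithelium means differed by −0.21 and 0.25 (exact sign-flip p = 0.0625 each, the smallest possible being 0.0312). The epithelium mean ran from 0.21 to 0.28 with single arrays left out and missed an exact permutation p of 0.05 in 5 of those 12 cases; without mutants 1 and 2 it was 0.16 (exact permutation p = 0.0905). The cause was not tested. Probe sets under the median signal limit what is said of Pln, Ryr2 and Slc8a2.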
